A study of Mus musculus with 2 samples.

Results

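Ifng encodes interferon-γ (IFN-γ), and Gbp2, Gbp3, Gbp5, Gbp7, Igtp, Irgm1, Iigp1, Irf1 and Cxcl9 are among the genes that IFN-γ is best known to induce. These 10 genes were taken by symbol, and all 10 were found among the 32285 genes of the tables. They were read in CD45+ brain cells of 4 control and 4 Arpc4ΔCx3cr1 mice, all 12 weeks old and all homozygous for the floxed Arpc4 allele (Arpc4 fl/fl). The Arpc4ΔCx3cr1 mice also carried a Cx3cr1-Cre transgene and the controls, which were littermates, did not. Cx3cr1-Cre is active in microglia and in other brain macrophages, so neither cell type is taken as an untouched reference. The change of Arpc4 in each is given below. The methods of the study name a female among the Arpc4ΔCx3cr1 mice and only males among the controls, without saying which mouse it was. The study left that female out of its downstream analysis, whereas all 8 mice are used here and each is also left out in turn. The cells of each mouse carried their own oligonucleotide tag, and the mice were pooled into 1 library whose transcripts were read from the 3′ end.

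IFN-γ is made mainly by activated T cells and natural killer (NK) cells. It binds the receptor Ifngr1/Ifngr2, which signals through the kinases Jak1 and Jak2. Gamma-activated sites (GAS) are DNA motifs of IFN-γ target genes, and Irf1, itself a target, binds interferon-stimulated response elements (ISRE). Guanylate-binding proteins (Gbp2, Gbp3, Gbp5, Gbp7) and immunity-related GTPases (Igtp, Irgm1, Iigp1) defend cells from within against microbes in vacuoles, with Irgm1 as a regulator of the other immunity-related GTPases. Cxcl9 is a chemokine that draws Cxcr3-bearing T cells. Type I interferons, through Ifnar1/Ifnar2, induce many of the same genes, so a level of a GTPase does not name the interferon behind it.

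The 4 Gbp genes lay in 1 stretch of chromosome 3 in the GRCm38 (mm10) annotation, from the start of Gbp5 at 142493978 to the end of Gbp2 at 142638008 on the plus strand. Gbp3 ended at 142573209 and Gbp2 started at 142620602. Gbp7 lay between Gbp5 and Gbp3 at chr3:142530342-142550149. Igtp (chr11:58199556-58207591), Irf1 (chr11:53770014-53778374) and Irgm1 (chr11:48861968-48871683, minus strand) lay on chromosome 11. Cxcl9 lay on chromosome 5 and Ifng on chromosome 10. On the same strand, Igtp shared part of its span with Irgm2, Gbp7 with Gm43802 and Ifng with Gm49751. Reads of these genes could therefore not always be told apart, and near-identical stretches within the Gbp family add the same uncertainty.

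Promoter sequences are shown because both motifs can be read in them. RefSeq start sites of build GRCm38.p6 were matched for 9 of the 10 members. In the 250 bases before the start site, the GAS letters TTCNNNGAA were found for 5 of the 9 members and the ISRE letters GAAANNGAAA, on either strand, for 6 of the 9. Over all genes of that table the GAS letters were found for 8.13% and the ISRE letters for 3.46%. Neither was found in that window for Cxcl9. The stretches below run 5′ to 3′ on the gene's strand, with the letters of either motif in capitals and 10 bases on each side.
Gbp2, chr3:142620594-142620623, plus strand: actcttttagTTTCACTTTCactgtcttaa
Gbp3, chr3:142559989-142560024, plus strand: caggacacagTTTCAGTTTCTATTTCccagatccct
Gbp7, chr3:142530220-142530302, plus strand: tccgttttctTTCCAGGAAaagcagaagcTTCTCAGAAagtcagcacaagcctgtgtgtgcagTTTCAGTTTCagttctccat
Igtp, chr11:58199501-58199541, plus strand: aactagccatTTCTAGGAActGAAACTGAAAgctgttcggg
Irgm1, chr11:48871425-48871460, minus strand: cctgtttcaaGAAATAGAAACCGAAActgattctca
Irf1, chr11:53769914-53769942, plus strand: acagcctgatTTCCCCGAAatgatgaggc
Gbp2, Gbp3 and Irgm1 held ISRE letters and no GAS letters, Irf1 held GAS letters and no ISRE letters, and Gbp7 and Igtp held both. Not printed are Gbp5, which also held both, and Ifng, which held GAS letters alone. The ISRE copies of Gbp3 and of Irgm1 overlap each other. These matches are descriptions of the letters and say nothing of binding in these cells.

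Of 19863 cells kept, 16839 were microglia-like, 409 were like CNS-associated macrophages (CAMs), 224 T cell-like and 85 NK cell-like. No barcode was shared between mice, and all 8 mice carried the tag that their label gives. Summed over microglia-like cells, there were 4194313 to 11605086 unique molecular identifiers (UMIs, each standing for 1 captured RNA molecule) per mouse, those over CAM-like cells 85315 to 433141 and those over T and NK cell-like cells 117166 to 278340. Arpc4, the targeted gene, was at 225 to 242 CPM (UMIs of the gene per 1000000 UMIs of the sum) in control microglia-like cells and at 132 to 147 CPM in Arpc4ΔCx3cr1 microglia-like cells. All 9 microglia markers were detected in these cells, and all 9 were lower in the Arpc4ΔCx3cr1 mice, with a summed level of 7077 to 10203 CPM against 18617 to 18817 CPM. The summed T cell markers were at 1.00 to 2.62 CPM in control and 2.05 to 3.72 CPM in Arpc4ΔCx3cr1 microglia-like cells, and the summed NK cell markers at 0.223 to 0.715 and 2.05 to 4.05 CPM. Arpc4ΔCx3cr1 mouse 1 stood apart, with 1347 CPM of hemoglobin transcripts in its microglia-like cells against 1.91 to 3.94 CPM in the other 7 mice, and with 1385 CPM of Xist, the RNA that coats the inactive X chromosome of female cells, against 3.01 to 13.4 CPM. The study does not number its female mouse, and no other mouse had such a level of Xist.

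The 2 genotypes filled different clusters of the microglia-like class: 3 clusters with over 90% control cells held 7438 of the 7772 control cells, and 6 clusters with over 90% Arpc4ΔCx3cr1 cells held 8345 of the 9067 Arpc4ΔCx3cr1 cells. Of the 2178 microglia-like cells of Arpc4ΔCx3cr1 mouse 1, 1582 lay in 1 of these 6 clusters, in which the Arpc4ΔCx3cr1 mice together had 1624 cells. The limit of 90% was set after the data had been seen.

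In microglia-like cells, Irgm1, Iigp1, Gbp2, Irf1 and Igtp were higher in the Arpc4ΔCx3cr1 mice and Gbp7 was lower. Levels are CPM of the UMIs summed per mouse, and fold changes come from edgeR's quasi-likelihood test on the same sums, adjusted over all 12660 genes tested. Of the 9 members tested, 6 passed an adjusted p of 0.05, 5 higher and 1 lower. In the same comparison 46.6% of all genes tested passed, 23.1% higher and 23.5% lower. The median log2 fold change was 0.45 over the 9 members and -0.01 over all genes. In 4 of the 9, Gbp7, Irgm1, Iigp1 and Irf1, the groups of mice did not overlap, as for 48.4% of all genes tested. Ifng did not pass the filter on low counts.

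**Figure D1:**
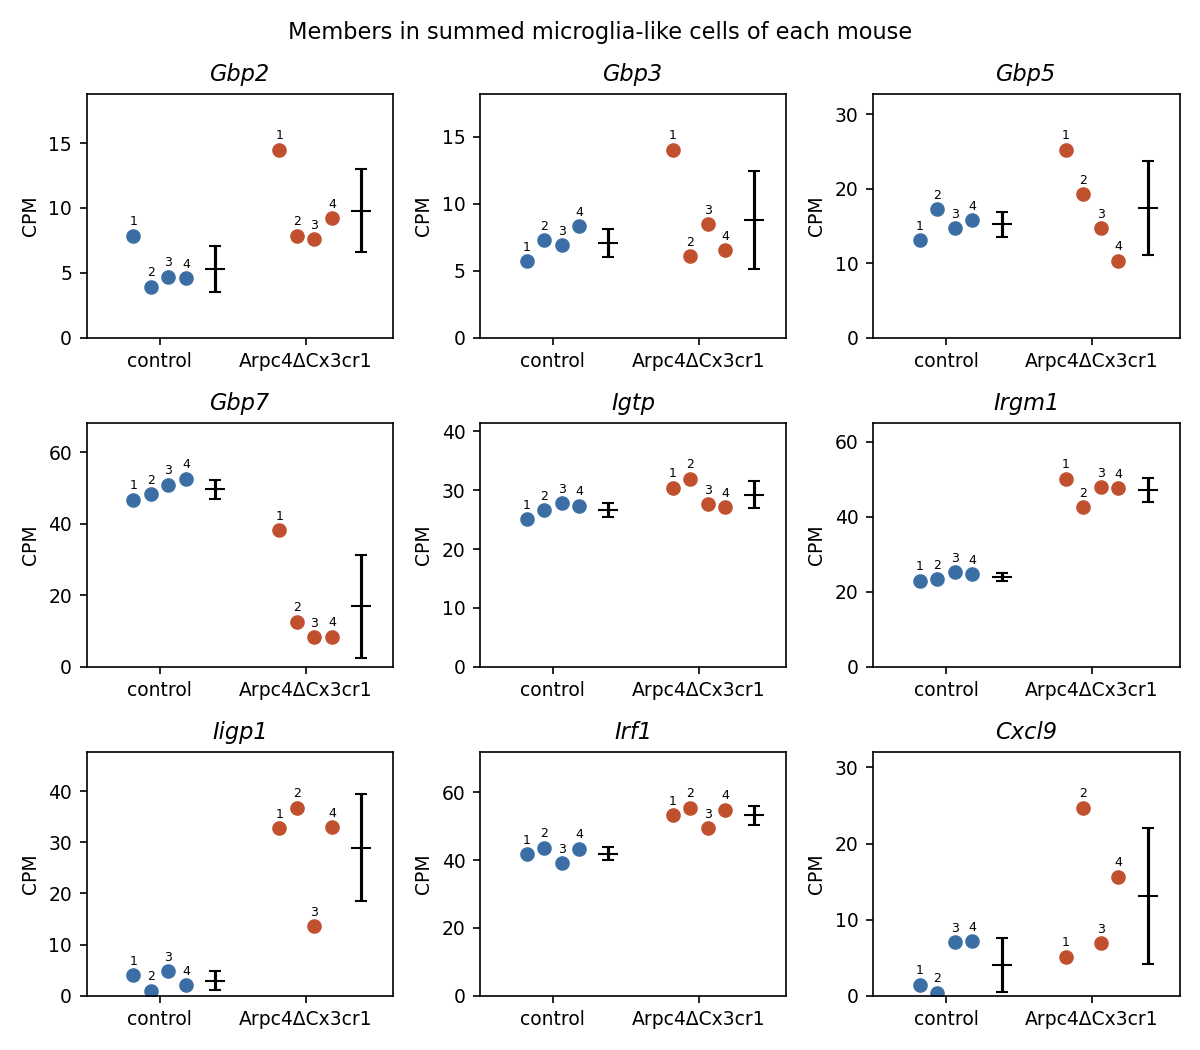
Each panel gives the level of 1 gene in CPM (vertical axis, from 0) in the summed microglia-like cells of each mouse, controls in blue and Arpc4ΔCx3cr1 mice in red, with the mouse number above each point and the mean ± SD of the 4 mice in black. Irgm1, Iigp1 and Irf1 lie higher in every Arpc4ΔCx3cr1 mouse than in any control, and Gbp7 lies at 38.2 CPM in Arpc4ΔCx3cr1 mouse 1 and between 8.19 and 12.6 CPM in the other 3.

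Irgm1 was at 22.9, 23.3, 25.2 and 24.6 CPM in control mice 1 to 4 and at 50.1, 42.6, 47.8 and 47.6 CPM in Arpc4ΔCx3cr1 mice 1 to 4. All 4 Arpc4ΔCx3cr1 mice lay far above all 4 controls, and the mice within a group were close to each other. The log2 fold change was 1.08 ± 0.07 (SE, edgeR adjusted p = 8.1e-07).

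Iigp1 was at 4.05, 0.933, 4.80 and 2.02 CPM in the controls and at 32.7, 36.7, 13.5 and 32.9 CPM in the Arpc4ΔCx3cr1 mice. The groups did not overlap, and Arpc4ΔCx3cr1 mouse 3 was the lowest of its group. Its log2 fold change of 3.48 ± 0.42 (SE, edgeR adjusted p = 6.2e-05) was the largest in size among the 9 members tested.

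Irf1, the transcription factor of the set, was at 41.7, 43.7, 39.1 and 43.3 CPM in the controls and at 53.2, 55.4, 49.4 and 54.9 CPM in the Arpc4ΔCx3cr1 mice. The groups did not overlap, although the rise was small, with a log2 fold change of 0.45 ± 0.06 (SE, edgeR adjusted p = 0.00011).

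Gbp2 was at 7.87, 3.94, 4.68 and 4.58 CPM in the controls and at 14.5, 7.88, 7.58 and 9.22 CPM in the Arpc4ΔCx3cr1 mice. Control mouse 1 reached the level of Arpc4ΔCx3cr1 mice 2 and 3, and the log2 fold change was 1.08 ± 0.26 (SE, edgeR adjusted p = 0.0060). Igtp was at 25.0 to 27.8 CPM in the controls and 27.1 to 31.9 CPM in the Arpc4ΔCx3cr1 mice. Its groups overlapped, and its log2 fold change of 0.23 ± 0.07 (SE, edgeR adjusted p = 0.020) was not past the threshold without control mouse 2 (adjusted p = 0.051) or without Arpc4ΔCx3cr1 mouse 2 (adjusted p = 0.055).

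Gbp7 went the other way. It was at 46.7, 48.2, 51.0 and 52.6 CPM in the controls and at 38.2, 12.6, 8.19 and 8.44 CPM in the Arpc4ΔCx3cr1 mice. Every Arpc4ΔCx3cr1 mouse was below every control, and mouse 1, the mouse with high hemoglobin and Xist, was close to the controls. The log2 fold change was -1.46 ± 0.41 (SE, edgeR adjusted p = 0.013) with all mice and -2.26 without mouse 1 (adjusted p = 1.7e-09). The part of sex, erythroid RNA or any other property of mouse 1 in this value was not tested.

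The same neighbourhood on chromosome 3 did not move as 1 unit. Gbp5, which starts upstream of Gbp7, was at 13.1, 17.2, 14.7 and 15.8 CPM in the controls and at 25.2, 19.3, 14.7 and 10.4 CPM in the Arpc4ΔCx3cr1 mice. Gbp3, which follows Gbp7, was at 5.72 to 8.30 CPM in the controls and at 14.0, 6.07, 8.44 and 6.53 CPM in the Arpc4ΔCx3cr1 mice. Neither passed the edgeR test, with log2 fold changes of 0.28 (95% interval -0.16 to 0.73) for Gbp5 and 0.40 (-0.10 to 0.90) for Gbp3. Without Arpc4ΔCx3cr1 mouse 1 these were 0.04 and 0.08, and without the interferon cluster Gbp5 was at -0.30. In both genes Arpc4ΔCx3cr1 mouse 1 held the highest value of all 8 mice, as it did in Gbp2 and Irgm1.

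Cxcl9 was at 1.43, 0.415, 7.03 and 7.13 CPM in the controls and at 5.14, 24.7, 6.89 and 15.7 CPM in the Arpc4ΔCx3cr1 mice. The groups overlapped, and the log2 fold change of 1.71 ± 0.65 (SE, edgeR adjusted p = 0.051) did not pass the threshold. Without Arpc4ΔCx3cr1 mouse 1 it was 1.96 (adjusted p = 0.0060), and without mouse 3 it was 1.92 (adjusted p = 0.036). Few cells carried it, and these carried many copies. In control mouse 4, 58 of the 67 UMIs came from 1 cell, and in Arpc4ΔCx3cr1 mouse 2, 85 of 232 did. Cells with a Cxcl9 UMI numbered 3, 3, 5 and 9 in the controls and 19, 21, 21 and 38 in the Arpc4ΔCx3cr1 mice, of 996 to 2377 microglia-like cells per mouse. These counts of cells, looked at after the levels had been seen and not scaled to cells or depth, did not overlap between the groups. Levels in CPM did not overlap for 48.4% of all genes tested. After each cell had been thinned to 2000 UMIs, 0.182% ± 0.108 (SD, n = 4) of control and 0.792% ± 0.189 (SD, n = 4) of Arpc4ΔCx3cr1 microglia-like cells held one, and 0.257% and 1.09% did before thinning.

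The members differed in how their UMIs were spread over cells. In Arpc4ΔCx3cr1 microglia-like cells Cxcl9 had 5.53 UMIs per cell that held any and Iigp1 had 2.67, with up to 85 and 64 UMIs in 1 cell. Gbp2, Gbp3, Gbp5, Gbp7, Igtp, Irgm1 and Irf1 had 1.12 to 1.46. After thinning to 2000 UMIs, Irgm1 was found in 4.66% ± 0.474 (SD, n = 4) of control and 8.48% ± 0.602 (SD, n = 4) of Arpc4ΔCx3cr1 microglia-like cells. Iigp1 was found in 0.321% ± 0.157 and 2.94% ± 1.02 (SD, n = 4 each), and Gbp7 in 9.31% ± 0.267 and 3.11% ± 2.48 (SD, n = 4 each). Before thinning the shares were 8.92% and 17.5% for Irgm1, 0.618% and 5.08% for Iigp1 and 16.6% and 6.44% for Gbp7, at median depths of 3830.5 and 4274 UMIs. The thinning left out 289 control and 329 Arpc4ΔCx3cr1 microglia-like cells. In thinned monocyte-like cells Iigp1 was found in 1 of 114 control and 0 of 228 Arpc4ΔCx3cr1 cells. In UMIs summed over monocyte-like cells, Irf1 was at 37.8 ± 14.9 CPM in the controls. It was at 89.6 ± 23.8 CPM in the Arpc4ΔCx3cr1 mice (SD, n = 4 each). Igtp was at 12.2 ± 2.85 and 27.1 ± 5.32 CPM (SD, n = 4 each), although its thinned share was 4.24% and 1.57%. Gbp3, Gbp7, Iigp1 and Cxcl9 had lower means in the Arpc4ΔCx3cr1 mice. Genotype was not tested in monocyte-like cells.

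Much of this signal sat in 1 small cluster of microglia-like cells, called the interferon cluster because it had the highest summed level of type I interferon-stimulated genes. No gene of the lists was used to form the clusters, the members included. The interferon cluster held 6, 11, 4 and 11 cells of control mice 1 to 4 and 114, 85, 64 and 92 cells of Arpc4ΔCx3cr1 mice 1 to 4. That was 0.436% ± 0.179 of control and 3.94% ± 1.04 of Arpc4ΔCx3cr1 microglia-like cells (SD, n = 4 each), given as a description because other genes that differ between the genotypes entered the clustering. In the Arpc4ΔCx3cr1 mice the cluster carried 68.3% of the Iigp1 UMIs, 67.5% of Cxcl9, 41.1% of Gbp2 and 36.4% of Gbp5. It carried 12.98% to 21.4% of Irf1, Igtp, Irgm1, Gbp3 and Gbp7, from 2.75 to 4.95% of the microglia-like UMIs of these mice. In the controls it carried 52.3% of Iigp1 (46 of 88 UMIs), 43.6% of Cxcl9 (61 of 140), 25.0% of Gbp2 (39 of 156) and 2.20% of Gbp5. It carried 1.18% to 4.27% of the other members named, from 0.488 to 0.656% of the microglia-like UMIs of the controls.

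Within the cluster the members ran at high levels in the Arpc4ΔCx3cr1 mice: Iigp1 at 489 ± 121 CPM, Irgm1 at 218 ± 14.0 CPM, Irf1 at 177 ± 44.5 CPM, Gbp5 at 157 ± 72.6 CPM and Gbp7 at 86.7 ± 47.3 CPM (SD, n = 4 each). By mouse, Gbp7 in the cluster was at 153, 83.0, 68.9 and 41.96 CPM in Arpc4ΔCx3cr1 mice 1 to 4, with mouse 1 the highest and mouse 4 below every control value of microglia-like cells as a whole. Outside the cluster Gbp7 was at 13.8 ± 12.3 CPM (SD, n = 4). The 32 control cells of the cluster held Gbp7 at 106 ± 31.8 CPM and Irgm1 at 172 ± 34.2 CPM (SD, n = 4 each). With 4 to 11 control cells per mouse, a difference between genotypes inside the cluster could not be resolved. In cells thinned to 2000 UMIs, at least 3 of the 7 GTPase genes were detected in 66 of 349 Arpc4ΔCx3cr1 cells of the cluster, and in 18 of 8389 outside it, 10 of them from mouse 1. In the controls it was 7 of 31 cells of the cluster and 8 of 7452 outside it.

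Without the interferon cluster, an alternative added after the data had been seen, 5 of 9 members passed the edgeR test, beside 46.4% of all genes tested in that fit. Outside it Irgm1 was at 21.6 to 24.5 CPM in the controls and 34.6 to 43.0 CPM in the Arpc4ΔCx3cr1 mice, with a log2 fold change of 0.89. Iigp1 rose by a log2 fold change of 2.96 (adjusted p = 0.00011), from 0.720 to 2.13 CPM in the controls to 4.34 to 12.3 CPM. Gbp2 and Irf1 also stayed higher and Gbp7 stayed lower, at -1.74 (adjusted p = 0.0053). Igtp did not, with a log2 fold change of 0.02 (adjusted p = 0.91), and Cxcl9 was at 0.91 (adjusted p = 0.31).

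**Figure D2:**
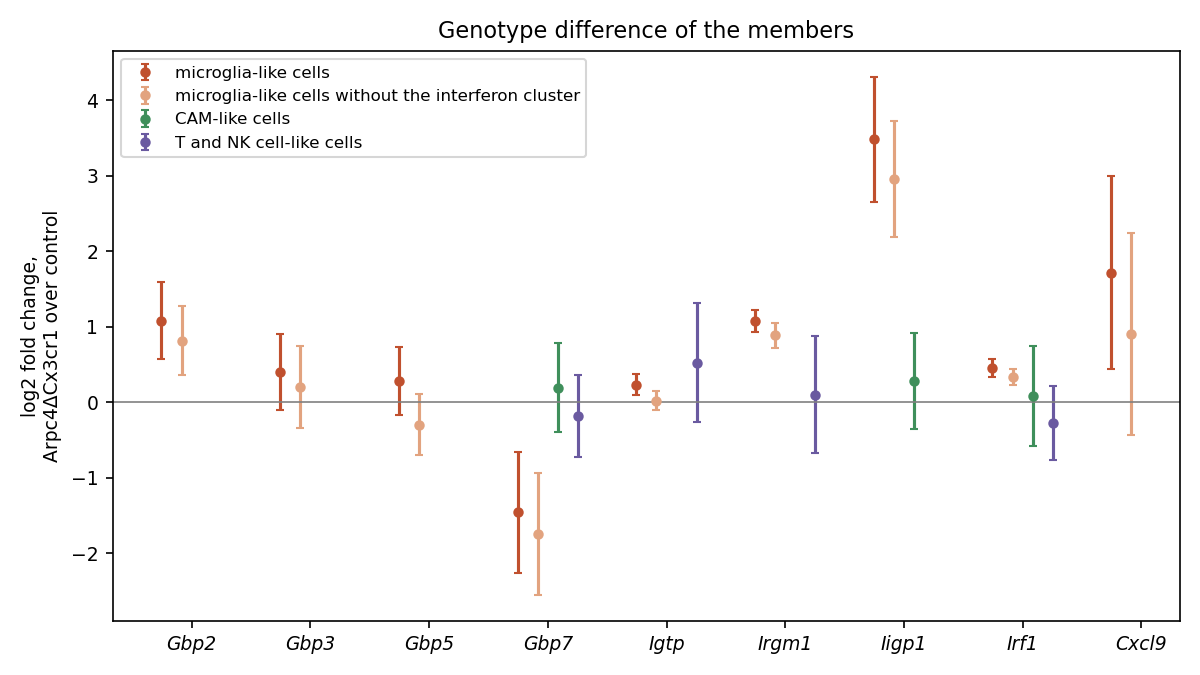
Log2 fold change of Arpc4ΔCx3cr1 over control (vertical axis) of each member in microglia-like cells, in microglia-like cells without the interferon cluster, in CAM-like cells and in T and NK cell-like cells, from edgeR. Bars are 95% intervals, and a missing point is a gene that did not pass the filter on low counts in those cells. Iigp1 is at 3.48 in microglia-like and 0.28 in CAM-like cells, and Gbp7 lies below 0 in microglia-like cells.

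CAM-like cells already carried several members at high levels in the controls. Iigp1 was at 59.6, 61.9, 87.7 and 132 CPM in the control mice and at 154, 70.3, 66.2 and 110 CPM in the Arpc4ΔCx3cr1 mice. The groups overlapped throughout, and the controls lay far above the 0.933 to 4.80 CPM of control microglia-like cells. Gbp7 was at 57.7 to 76.4 CPM in control and 44.1 to 102 CPM in Arpc4ΔCx3cr1 CAM-like cells, with no fall of the kind seen in microglia-like cells. Only Gbp7, Irf1 and Iigp1 passed the filter on low counts, and 0 of these 3 passed the edgeR test, where 1.06% of the 3308 genes tested did. None of the 3 had an unadjusted p under 0.05, and the lowest was 0.39, that of Iigp1. DESeq2 gave an adjusted p for Iigp1 alone and did not call it. The log2 fold changes were 0.28 (95% interval -0.35 to 0.92) for Iigp1, 0.19 (-0.40 to 0.79) for Gbp7 and 0.08 (-0.58 to 0.75) for Irf1. These sums rest on 19 to 107 cells per mouse. Arpc4 itself was not called in CAM-like cells, at a log2 fold change of 0.23 (95% interval -0.19 to 0.66, edgeR adjusted p = 0.77). In microglia-like cells it was -0.62 (edgeR adjusted p = 4.9e-06).

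The difference between the genotype effects in microglia-like and CAM-like cells was tested in 1 fit, in which 4.54% of 11179 genes passed and the median gene lay at 0.13. Arpc4 passed, at -0.79 ± 0.18 (SE, edgeR adjusted p = 0.0082). Of the 9 members tested 1 passed: the log2 fold change of Iigp1 was larger in microglia-like cells by 3.26 ± 0.61 (SE, edgeR adjusted p = 0.0019). On simulated counts this fit recovered 18.6% of log2 differences of 1 and 56.6% of those of 2. Members that did not pass are therefore not shown to change alike in both cell types. For Gbp7 the difference was -1.59 ± 0.81 (SE, edgeR adjusted p = 0.34), which without Arpc4ΔCx3cr1 mouse 1 was -2.25 ± 0.41 (SE, edgeR adjusted p = 0.00060), and for Igtp -1.14 ± 0.37 (SE, edgeR adjusted p = 0.088). Both sums of a mouse come from the same animal, and with the mouse as a block the adjusted p was 1.9e-17 for Iigp1, 0.0011 for Gbp7 and 0.031 for Cxcl9. That fit spends a term on each mouse and leaves little to gauge spread from. A p-value as small as that of Iigp1 therefore leans on spread estimated over all genes, not on these mice alone. The Cxcl9 value rests on 1 cell, since all 56 Cxcl9 UMIs in CAM-like cells of Arpc4ΔCx3cr1 mouse 1 came from it, and without that mouse the difference was 0.48 in place of -2.45.

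T and NK cell-like cells carried the GTPases in both genotypes. In T cell-like cells Gbp7 was at 91.1 ± 13.5 CPM in the controls and 75.9 ± 12.99 CPM in the Arpc4ΔCx3cr1 mice, and Irf1 at 130 ± 59.8 and 92.5 ± 22.7 CPM (SD, n = 4 each). Of the members, Gbp7, Irgm1, Irf1 and Igtp could be tested in T and NK cell-like cells together, and 0 of the 4 passed, where 3.88% of the 4204 genes tested did. None had an unadjusted p under 0.05, and the lowest was 0.20, that of Igtp, and DESeq2 called 0 of them. The intervals still allowed changes of some size, from -0.72 to 0.36 for Gbp7 and from -0.26 to 1.31 for Igtp on the log2 scale. Cxcl9 was at 0 UMIs in the 224 T cell-like cells. Microglia markers were at 5861 to 6803 CPM in the control and 2425 to 3960 CPM in the Arpc4ΔCx3cr1 sums of these cells, and their part in the values was not tested.

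**Figure D3:**
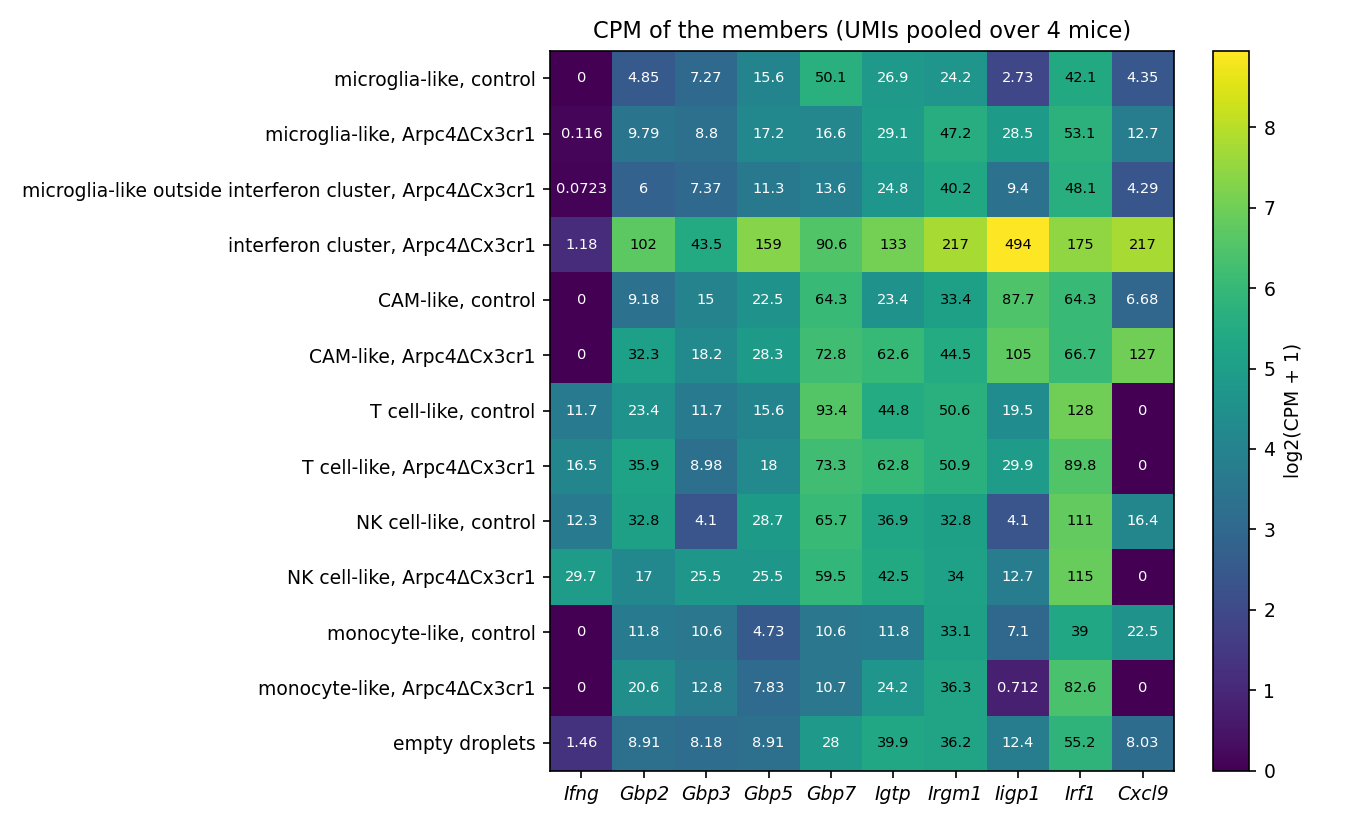
Level of each member (columns) in CPM, from UMIs pooled over the 4 mice of a group, in cell classes of each genotype and in empty droplets (rows). Colour is log2(CPM + 1), and the numbers are CPM. The row of the interferon cluster is the highest for Gbp2, Gbp3, Gbp5, Igtp, Irgm1, Iigp1, Irf1 and Cxcl9, and Ifng is above 5 CPM only in T and NK cell-like cells.

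Over the cell classes with at least 10 cells in each control mouse, Gbp7 was at 91.1 ± 13.5 CPM in T cell-like, 64.9 ± 8.43 CPM in CAM-like, 49.6 ± 2.64 CPM in microglia-like and 10.0 ± 5.13 CPM in monocyte-like cells (SD, n = 4 each). T cell-like and CAM-like values lay apart by more than 1 SD of either, as did CAM-like and microglia-like values. The level in Arpc4ΔCx3cr1 mice 2 to 4, 8.19 to 12.6 CPM in microglia-like cells, lay within 1 SD of the monocyte-like mean. For Iigp1 the order was 85.3 ± 33.6 CPM in CAM-like, 17.8 ± 8.21 CPM in T cell-like, 6.26 ± 5.14 CPM in monocyte-like and 2.95 ± 1.78 CPM in microglia-like cells, and past CAM-like cells no neighbours in that order differed by more than their SDs together. Irf1 was at 130 ± 59.8 CPM in T cell-like and 62.1 ± 10.1 CPM in CAM-like cells against 41.97 ± 2.06 CPM in microglia-like cells. Empty droplets, barcodes with at most 100 UMIs, held Irf1 at 55.2 CPM, Igtp at 39.9 CPM, Irgm1 at 36.2 CPM, Gbp7 at 28.0 CPM, Iigp1 at 12.4 CPM, Gbp2 and Gbp5 at 8.91 CPM each, Gbp3 at 8.18 CPM and Cxcl9 at 8.03 CPM. The empty-droplet levels of Iigp1, Gbp2, Gbp3, Cxcl9, Irf1, Igtp and Irgm1 were above the control means of microglia-like cells. Those of Igtp, Irf1 and Gbp7 were also above the Arpc4ΔCx3cr1 means, which were 29.3, 53.2 and 16.8 CPM. For Igtp no mouse of either group reached the empty-droplet level. The Arpc4ΔCx3cr1 means of the other members named lay above it. What part of the levels in either group came from free RNA was not tested, beyond the fit with 10% of it subtracted, in which the calls of the members stayed.

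Ifng itself was rare. There were 33 Ifng UMIs in 28 of the 19863 cells, and 27 of them, 81.8%, lay in the 309 T and NK cell-like cells. Of the T cell-like cells 13 of 224, or 5.80% (95% exact binomial interval 3.13 to 9.72), held an Ifng UMI, and of the NK cell-like cells 9 of 85, or 10.6% (4.96 to 19.2). Of the microglia-like cells 5 of 16839, or 0.0297% (0.00964 to 0.0693), did, at a median depth of 4042 UMIs against 4567.5 and 4466 UMIs in T and NK cell-like cells. Ifng was at 0.0663 CPM in microglia-like cells, below the 1.46 CPM (10 UMIs) of empty droplets. All 5 of these UMIs lay in the 9067 Arpc4ΔCx3cr1 cells, at 0.086 to 0.187 CPM per mouse, and 0 in the 7772 control cells. Whether they came from free RNA was not tested. CAM-like cells held an Ifng UMI in 0 of 409 cells, which at a limit of 3 counts allows a share of up to 0.734% (exact binomial upper bound 0.898%), and monocyte-like cells in 0 of 347, which allows up to 0.865% (exact 1.06%). These intervals and limits cover counting error only. Of the 95 T cell-like cells with a Cd8a or Cd8b1 UMI and no Cd4 UMI 10 held Ifng, and of the 18 with a Cd4 UMI alone 1 did.

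By mouse, T and NK cell-like cells held 1, 7, 0 and 1 Ifng UMIs in control mice 1 to 4 and 5, 3, 6 and 4 in Arpc4ΔCx3cr1 mice 1 to 4. In CPM that was 8.53, 30.2, 0 and 6.54 in the controls and 21.02, 20.1, 25.2 and 14.4 in the Arpc4ΔCx3cr1 mice. The groups overlapped, because control mouse 2 had the highest level of all 8. After each cell had been thinned to 1000 UMIs, 0.893% ± 1.79 of control and 2.38% ± 1.82 of Arpc4ΔCx3cr1 T and NK cell-like cells held an Ifng UMI (SD over 4 mice), which differ by 1.49 percentage points. A two-sided exact permutation test over the mice gave p = 0.37 (0.37 adjusted over the 2 shares tested). The thinned shares rest on 0, 0, 0 and 1 cells with an Ifng UMI in control mice 1 to 4. In Arpc4ΔCx3cr1 mice 1 to 4 they rest on 2, 1, 1 and 0 such cells. Counts this small leave the test little to resolve. Unthinned, the counts were 7 of 133 and 15 of 176 cells. T and NK cell-like cells made up 1.44% ± 0.320 of control and 1.68% ± 0.389 of Arpc4ΔCx3cr1 cells (SD over 4 mice), with p = 0.31 in the same exact test and 0.37 after adjustment. The smallest p that 4 mice against 4 allow is 0.0286. A difference in Ifng was not detectable at this depth, with 9 and 18 UMIs in the 2 groups before thinning.

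Set beside each other by mouse, Ifng and its targets did not share 1 order in all mice. Control mouse 2, with 7 Ifng UMIs, had the highest Ifng level in T and NK cell-like cells and the lowest Iigp1 (0.933 CPM), Gbp2 (3.94 CPM) and Cxcl9 (0.415 CPM) in microglia-like cells of all mice. Among the controls it also had the highest Irf1 (43.7 CPM) and Gbp5 (17.2 CPM), and its Irgm1 (23.3 CPM) was the second lowest. Arpc4ΔCx3cr1 mouse 3, with the highest Ifng of its group, had the lowest Iigp1 of its group. With 0 to 7 Ifng UMIs per mouse and 4 mice in each genotype, no correlation across mice is given, and the relation was not tested.

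**Figure D4:**
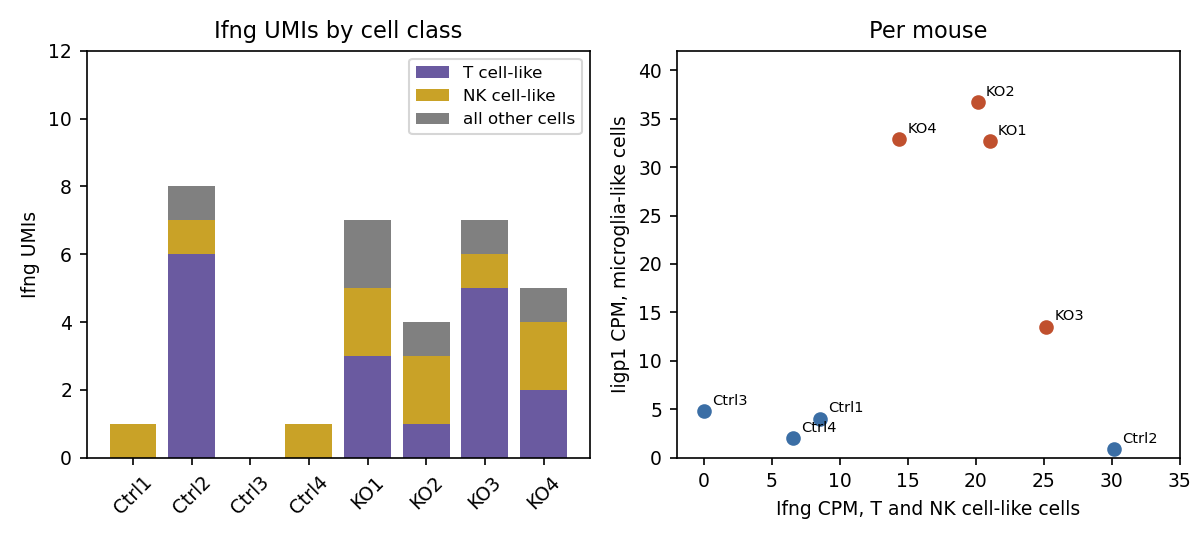
Left, Ifng UMIs (vertical axis) in each mouse, stacked by T cell-like, NK cell-like and all other cells. Right, Ifng CPM in T and NK cell-like cells (horizontal axis) against Iigp1 CPM in microglia-like cells (vertical axis), 1 point per mouse, controls in blue and Arpc4ΔCx3cr1 mice in red. Control mouse 2 lies at 30.2 CPM of Ifng and 0.933 CPM of Iigp1, and the 4 Arpc4ΔCx3cr1 mice lie between 13.5 and 36.7 CPM of Iigp1.

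The receptor and signalling genes of IFN-γ moved in both directions in microglia-like cells: of 10 tested, 5 were higher and 2 lower. Over all genes tested there, 23.1% were higher and 23.5% lower. Ifngr1, the ligand-binding chain, was lower by 0.49 on the log2 scale, from 643 ± 16.4 to 426 ± 40.7 CPM (SD, n = 4 each, edgeR adjusted p = 0.00013). Ifngr2, the second chain, was at a log2 fold change of 0.28 and Jak2 at 0.26, both higher, while Jak1 fell by 0.24.

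Of the other interferon-inducible GTPases 12 of 14 tested were higher in Arpc4ΔCx3cr1 microglia-like cells and 0 were lower, with a median log2 fold change of 1.35. The shares over all genes tested were 23.1% higher and 23.5% lower. The largest rises were those of Gbp4 (3.38), Tgtp2 (3.35) and Gbp6 (3.20), each from under 1 CPM in the controls. Irgm2 and 9930111J21Rik1 did not pass. Of the 21 GTPases of both lists tested, Gbp7 alone passed as lower with all microglia-like cells. Without the interferon cluster Irgm2 did so too, at a log2 fold change of -0.27.

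Of other IFN-γ targets 12 of 16 tested were higher and 0 lower in microglia-like cells, where 23.1% of all genes tested were higher and 23.5% lower. Cxcl10, which shares the receptor Cxcr3 with Cxcl9, had a log2 fold change of 3.49, Nlrc5, which drives major histocompatibility complex (MHC) class I genes, 3.00, and Cd74, the chaperone of MHC class II, 2.15. Of the type I interferon-stimulated genes all 26 tested were higher, with a median of 3.22, and the largest rises were those of Ifi44 (4.83), Ifi207 (4.12) and Oas2 (4.04). The median over the 9 members tested was 0.45, and that over the 16 other IFN-γ targets tested was 1.04. In CAM-like cells 7 of 14 type I interferon-stimulated genes tested were higher, and in T and NK cell-like cells 5 of 16. Over all genes tested, 1.06% passed in CAM-like and 3.88% in T and NK cell-like cells, in either direction. Ifnar1 and Ifnar2, the receptor of type I interferons, were higher in microglia-like cells, by log2 fold changes of 0.61 and 0.21.

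Of a list of genes tied to Ifng induction in lymphocytes, which also holds the chemokine receptor Cxcr3, 7 were tested in microglia-like cells. There 4 were higher and 1 lower, beside 23.1% and 23.5% of all genes tested. Il12b, a subunit of interleukin-12, which induces Ifng, was at 0.549 ± 0.713 CPM in the controls and 5.92 ± 3.21 CPM in the Arpc4ΔCx3cr1 mice (SD over 4 mice), with a log2 fold change of 3.33. Il18rap (2.52, at 4.74 to 37.1 CPM in the Arpc4ΔCx3cr1 mice) and Il12rb2 (1.58) were also higher, as was Il27 (0.43, edgeR adjusted p = 0.021), and Cxcr3 was lower (-0.92), while Il18 and Il15 did not pass, at -0.07 and -0.21. In T and NK cell-like cells 0 of 6 genes of this list passed, where 3.88% of all genes tested did.

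Over 48 sums of 1 class in 1 mouse, the 5 genes whose level was most like that of Ifng were Rundc3b, Klrc1, Tcf7, Sh2d1a and Fasl, with Pearson r of 0.78 to 0.83 on log2(CPM + 10). Those most like Cxcl9 were Gm15582, Gm11867, Apoc1, Gm20337 and Cstb (0.57 to 0.65). Those most like the mean of the 7 GTPases were Ifit3, Trim14, Gpr65, Ifi208 and Ifi213 (0.73 to 0.77). These values describe 48 sums that share mice and 1 library, and the sums differ in depth.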

How the data were processed

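CD45+ brain cells of 8 mice, tagged per mouse, were pooled in 1 library. The authors aligned reads to mm10 with Cell Ranger (6.1.2 per the labels, 7.1.0 per the file headers) and deposited raw UMI counts per mouse and for the pool, without ambient RNA correction. Members and lists were chosen with earlier results of these data known.

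Barcodes under 200 genes or above 20% mitochondrial UMIs were dropped, and the cells were clustered with Seurat 5.3.0 (20 principal components, resolution 0.8) without the list genes, and no doublet caller was run. Clusters were named from marker lists; a microglia-like cluster held at least 3 microglia markers at a log2 level 1 or more above T cell, B cell and granulocyte clusters. These limits, and leaving NK cells out of that reference, were set after the clusters had been seen. They admit the cluster with the highest Ms4a7 level, led by hemoglobin transcripts, which was left out in an alternative. Clusters of low UMI count, and 1 with a CAM marker among its leading 10 genes, stayed unnamed.

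UMIs were summed per mouse and compared in R 4.3.3 by the quasi-likelihood test of edgeR 4.0.16, after filterByExpr and TMM scaling. P-values were adjusted by Benjamini-Hochberg and called under 0.05. CPM are scaled by the total alone. Tests were checked on simulated data. DESeq2 1.42.0, other factors, no filter, other clusterings, 10% of ambient RNA subtracted, the replicate number as a block and leaving out each mouse were alternatives. Named genes are the 10 members, the 3 largest called rises and falls of each other list, and the 5 genes most like Ifng, Cxcl9 and the GTPases; T cell subsets and Irgm2 were added after values were seen. A signalling gene that this rule names is not reported here.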

Additional observations from a re-analysis of the deposited data

Results flagged for a closer look

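In 38 groups of 4 mice, 6 values stood apart from the other 3 mice by Dixon's criterion at 95%, which chance gives in about 1 of 20 groups. In microglia-like cells, Gbp7 in Arpc4ΔCx3cr1 mouse 1 was at 38.2 CPM, against 8.19 to 12.6 CPM in the other 3. In CAM-like cells, control mouse 1 stood apart with Gbp2 at 18.3 CPM (4 UMIs) and Gbp5 at 36.7 CPM (8 UMIs). Control mouse 2 did so with Irgm1 at 42.5 CPM (11 UMIs) and with Cxcl9 at 27.1 CPM (7 UMIs, all of 1 cell). Cxcl9 in CAM-like cells of Arpc4ΔCx3cr1 mouse 1 was at 360.1 CPM, from 56 UMIs of 1 cell.

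The genotype difference of Iigp1 was larger in microglia-like than in CAM-like cells by 3.26 on the log2 scale, in the test of that difference (edgeR adjusted p = 0.0019). It was 2.90 to 3.73 when each mouse was left out in turn, past the threshold each time (adjusted p up to 0.019).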

How the results depend on the processing

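In microglia-like cells, Irgm1, Iigp1, Irf1, Gbp2 and Gbp7 kept their direction and passed the test under all 18 alternatives. Igtp did not pass with the replicate number as a block (adjusted p = 0.051), without control mouse 2, without Arpc4ΔCx3cr1 mouse 2 and without the interferon cluster. Cxcl9 passed without the filter (adjusted p = 0.016), with the list genes kept in the clustering (adjusted p = 0.018) and without Arpc4ΔCx3cr1 mouse 1 or 3. The numbers of the mice do not pair them (correlations of deviations -0.074 to -0.003), and the replicate block gave 5736 genes in place of 5901 in microglia-like cells.

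Calls over all genes were 163 in T and NK cell-like cells, 282 without the filter and 104 to 173 when 1 mouse was left out, the lowest without control mouse 2. In CAM-like cells they were 35, 129 without the filter and 11 to 71 when 1 mouse was left out, with 15, 23 and 11 without control mice 1, 2 and 3 and 71 without Arpc4ΔCx3cr1 mouse 2. The causes of these shifts were not tested. Between microglia-like and CAM-like cells, calls were 507, and 699 with the mouse as a block. Log2 fold changes that changed sign were past the threshold in neither setting. These were Gbp5 in microglia-like cells without the interferon cluster (-0.30), Gbp5 in the test between cell types with RLE factors (-0.052) and Irf1 in CAM-like cells without the filter (-0.0051). With 1 mouse left out, the test between cell types gave -1.02 to 0.23 for Gbp2, -0.039 to 0.41 for Gbp3, -0.22 to 0.46 for Gbp5 and -5.45 to 0.48 for Cxcl9. It gave -0.30 to 0.44 for Irgm1 in T and NK cell-like cells, and -0.093 to 0.53 for Iigp1 and -0.26 to 0.31 for Irf1 in CAM-like cells. Neither share of T and NK cell-like cells passed under any alternative. Depth limits Ifng, with 33 UMIs in all.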
